A study of Mus musculus with 10 samples.

Results

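The ASB genes encode proteins with ankyrin repeats and a SOCS box, and 10 of them were followed in mouse gastrocnemius: Asb2, Asb4, Asb5, Asb8, Asb10, Asb11, Asb12, Asb14, Asb15 and Asb18. The rows of the count table were matched by Ensembl identifier to these 10 symbols, out of 49315 identifiers in all, and all 10 passed the filter on low counts. Asb15 was chosen by its counts in these same mice, because its values in the 2 genotypes did not overlap. Genotype differences of the 10 genes are therefore given as descriptions, without p-values.

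All 10 libraries came from male C57BL6J mice whose Ahr alleles were floxed. AHRfl/fl mice, littermates that carried no Cre, were numbered 11, 12, 13, 15 and 33. AHRmKO mice, numbered 8, 9, 19, 22 and 34, also carried the HSA-MCM transgene, a tamoxifen-inducible MerCreMer driven by the human ACTA1 promoter, so deletion was aimed at muscle fibres and the other cells of the muscle kept Ahr. Both genotypes were exposed to cigarette smoke for 16 weeks (exposures of 1 h, 2 per day on 5 days per week), and muscle was taken 72 h after the last exposure, although the study's text also allows an earlier time. Tamoxifen came before smoke, by 4 weeks in the labels' protocol and the supplementary methods and by a shorter interval in the main text. The protocols name AHRmKO mice, while the study's account of the smoke exposure places both genotypes after tamoxifen. The study calls the animals aged without a number, and air-exposed muscle was not analysed here. Total counts were between 30393035 and 36500548 in AHRfl/fl and between 35038167 and 37954388 in AHRmKO.

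An ASB protein is the substrate-recognition part of a ubiquitin ligase. Its ankyrin repeats bind the target protein, and its SOCS box docks onto elongin B and elongin C and through them onto the scaffold cullin 5 with the RING protein RNF7, so that the target is marked with ubiquitin. Several members are most abundant in striated muscle, where Asb2 is known for directing filamins and desmin to degradation. Only RNA was measured here, so the amounts and the ligase activity of the proteins are not known from these libraries.

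Ahr itself, the targeted gene, was low in both groups. Its levels in AHRfl/fl mice 11, 12, 13, 15 and 33 were 3.13, 2.05, 1.64, 1.95 and 1.33 CPM (counts scaled to the TMM-normalized library size), and those in AHRmKO mice 8, 9, 19, 22 and 34 were 1.65, 2.17, 1.54, 1.63 and 0.927 CPM. The groups overlapped (log2 fold change -0.35, 95% interval -0.90 to 0.20, adjusted p = 0.844, edgeR's quasi-likelihood test), but a count over the whole gene does not test the loss of the floxed exon. Esr1, part of which the MerCreMer transgene carries, was 17.1 ± 1.14 CPM in AHRfl/fl and 371 ± 173 CPM in AHRmKO (SD, n = 5 each; adjusted p = 0.000433, edgeR), higher in the mice labelled as knockout. The study reports Esr1 as raised in AHRmKO muscle and lowered by constitutively active AHR. Counts from the transgene and from the gene itself were not told apart here. Esr1 was the 1 gene of 14714 called between the genotypes. The 6 markers of skeletal muscle (Acta1, Ckm, Mb, Ttn, Des and Ryr1) together made up 60876 to 75630 CPM, so every library held skeletal muscle RNA. These markers do not tell the gastrocnemius from other muscles. All 10 libraries held Y-linked Ddx3y (1852 to 2723 counts), and 5 of them, AHRfl/fl mice 11, 15 and 33 and AHRmKO mice 9 and 22, also held 44 to 75 counts of Xist, which male cells do not normally make, while the other 5 held 0 to 3.

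The 10 genes covered a wide span of levels. Per exon length (RPKM, the CPM divided by the exon length in kilobases, from TMM-scaled counts), the mean over the 10 mice was 228 for Asb2, 135 for Asb5, 46.4 for Asb10, 45.4 for Asb11, 42.5 for Asb8, 40.9 for Asb14, 20.8 for Asb12, 19.6 for Asb15, 4.28 for Asb18 and 3.43 for Asb4. Asb2 thus lay 66.6-fold above Asb4, made up 38.9% of the summed RPKM of the 10 genes, and ranked 142 among the 14714 genes tested. Neighbours in this order were compared within each mouse by a two-sided exact sign-flip permutation test on log2(RPKM + 0.1), adjusted over the 9 pairs, and 4 steps passed. Asb2 over Asb5 (mean difference 0.76 on the log2 scale), Asb5 over Asb10 (1.53), Asb14 over Asb12 (0.98) and Asb15 over Asb18 (2.17) each held in 10 of 10 mice, with p = 0.00195, the smallest this exact test can give, and adjusted p = 0.00439. The exon length joins the exons of all annotated transcripts of a gene. An error in that length would be the same in every mouse, and these p-values do not measure it.

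The remaining neighbours did not differ beyond their spread. Asb10 and Asb11 had an adjusted p of 0.611, Asb11 and Asb8 0.126, Asb8 and Asb14 0.241, Asb12 and Asb15 0.391, and Asb18 and Asb4 0.0668 in the exact permutation test. Among Asb10, Asb11, Asb8 and Asb14, between 40.9 and 46.4 RPKM, the order of neighbours was therefore not resolved. Pairs further apart in the order were not tested over the 10 mice, and Asb10 was above Asb8 in every mouse. Without AHRfl/fl mouse 12 the step from Asb18 to Asb4 also passed, and without AHRmKO mouse 9 Asb10 and Asb11 changed places and the step from Asb10 to Asb8 passed, which made 5 steps in either case. In RPKM, Asb15 was above Asb12 in 0 of 5 AHRfl/fl and 4 of 5 AHRmKO mice, which restates the separation Asb15 was chosen by. The mean was 21.1 for Asb12 and 16.5 for Asb15 in AHRfl/fl, and 20.5 and 22.7 in AHRmKO. The test of this pair pooled both genotypes, so its p-value does not show that the 2 levels were alike.

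**Figure D1:**
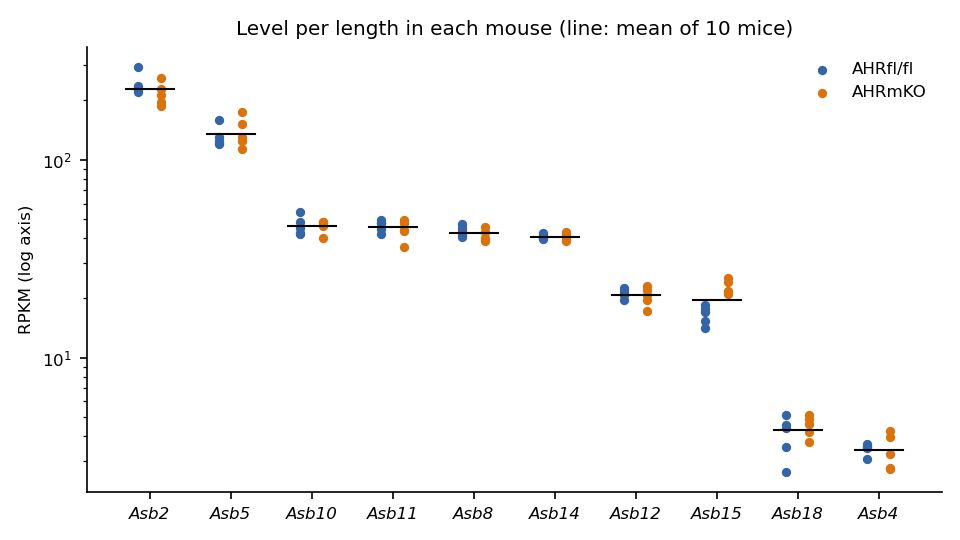
Level of each ASB gene in RPKM on a log axis. Each point is 1 mouse, AHRfl/fl in blue and AHRmKO in orange, and the line is the mean of 10 mice; Asb2 is at the top with a mean of 228 and Asb4 at the bottom with 3.43, and only for Asb15 do the 2 colours separate fully.

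Asb15 is a gene of striated muscle whose product has been linked to protein turnover in cultured muscle cells. It lies on chromosome 6 (GRCm38 chr6:24528144-24573164, plus strand, ENSMUSG00000029685) with 4497 exonic bases in 11 blocks. Its level was 63.7, 68.7, 83.3, 78.8 and 76.8 CPM in AHRfl/fl mice 11, 12, 13, 15 and 33. In AHRmKO mice 8, 9, 19, 22 and 34 it was 96.4, 97.7, 109, 114 and 94.3 CPM. Every AHRmKO mouse was above every AHRfl/fl mouse, and the lowest AHRmKO value was 1.13-fold the highest AHRfl/fl value.

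The mean of Asb15 was 74.3 ± 7.95 CPM in AHRfl/fl and 102 ± 8.57 CPM in AHRmKO (SD, n = 5 each). The fitted log2 fold change was 0.46 with a standard error of 0.08 (95% interval 0.28 to 0.64), a fold of 1.38 in AHRmKO over AHRfl/fl. Among all genes tested, 5.49% had a log2 fold change at least this large in either direction. Counts behind these values ran from 2240 to 4329 per mouse, so counting error was small beside the spread between mice. As the gene was picked for this separation, the numbers describe it and do not test it. Libraries with Xist were 3 of the AHRfl/fl and 2 of the AHRmKO mice. With the presence of Xist as a covariate, the fitted log2 fold change of Asb15 was again 0.46.

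Of the 10 genes, 0 were called at an adjusted p under 0.05 by edgeR, where 0.0068% of all genes tested were called. DESeq2 called 1 of the 10, Asb15, where it called 21 genes, 0.193% of the 10858 with an adjusted p. edgeR without a filter on low counts also called Asb15, 1 of 5 genes called among 31858 (0.0157%), and limma-voom called 0 of the 10, where it called 0.0068% of all genes tested. The genotypes did not overlap for 1 of the 10 genes, again Asb15. Over all genes tested 1.4% did not overlap in either direction, and 0.686% did not overlap with AHRmKO higher. The rule had used this contrast, so nothing is read from these shares. Asb15 had 0 of 25 pairs of mice in the wrong order, and the gene next closest to separation, Asb2, had 5 of 25. In bulk muscle, a change in the RNA of each fibre and a change in the share of fibres that make it cannot be told apart.

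**Figure D2:**
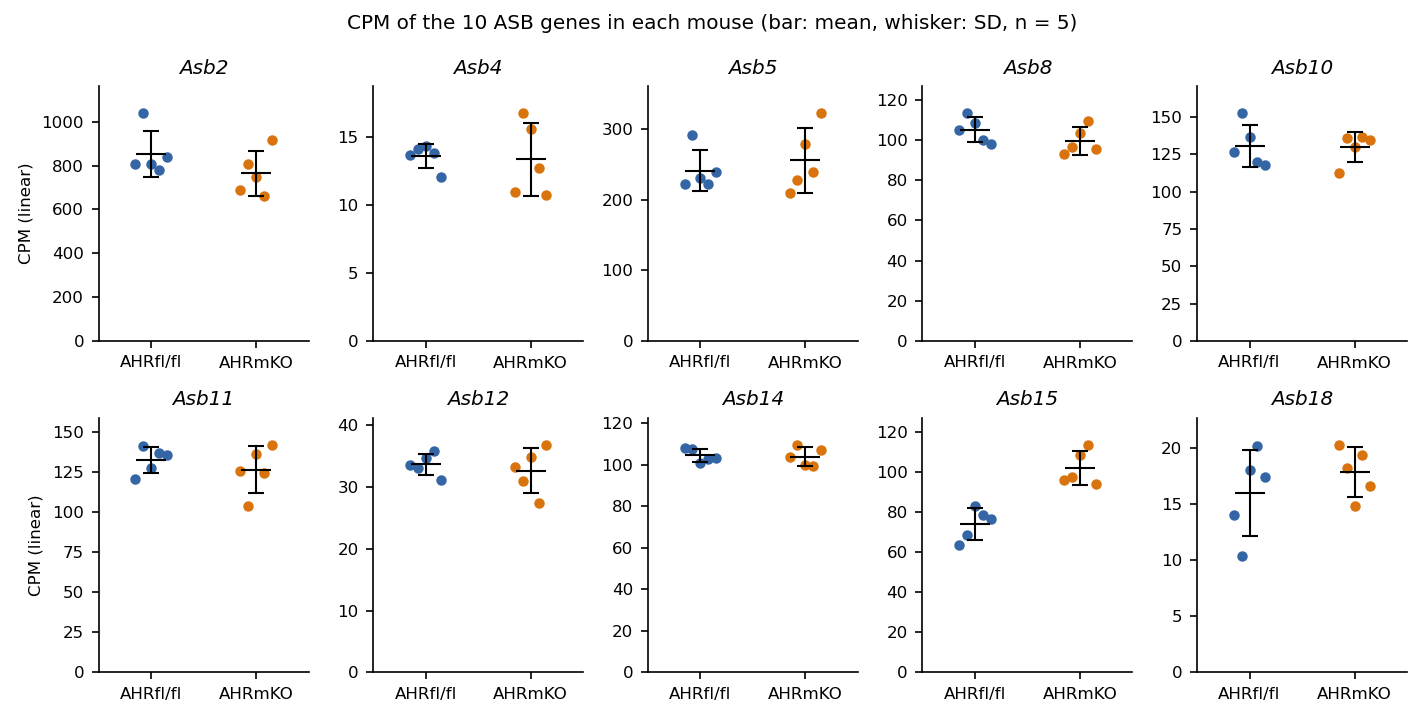
CPM of each ASB gene on linear axes that start at 0. Points are single mice, the bar is the mean and the whisker the SD of 5 mice per genotype; the groups separate for Asb15 (63.7 to 83.3 against 94.3 to 114 CPM) and overlap for the other 9 genes.

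The other 9 genes overlapped between genotypes. Asb2 was 806, 1038, 806, 781 and 837 CPM in AHRfl/fl mice 11, 12, 13, 15 and 33, and 689, 806, 749, 660.3 and 915 CPM in AHRmKO mice 8, 9, 19, 22 and 34. The highest value was that of AHRfl/fl mouse 12, and the lowest values were AHRmKO, but the groups overlapped (log2 fold change -0.16, 95% interval -0.38 to 0.06). Asb5, a gene studied in muscle satellite cells and in vessel growth, was 222, 291, 230.1, 223 and 239.8 CPM in AHRfl/fl and 209, 228, 279.5, 239 and 322 CPM in AHRmKO, in the same order of mice. Mouse 12 was again the highest AHRfl/fl mouse, and mouse 34 was the highest of all (log2 fold change 0.08, interval -0.17 to 0.34). Asb5 shares 75 exonic bases, 4.07% of its exons, with Spcs3 on the opposite strand, and the study says only that strand was used in counting if the library was stranded.

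Asb10, Asb11 and Asb8 were intermediate in level and overlapped between genotypes. Asb10 was 126, 152, 137, 119.7 and 118 CPM in AHRfl/fl mice and 112, 136, 130.2, 137 and 134 CPM in AHRmKO mice. Its lowest value was that of AHRmKO mouse 8, apart from the other 4 mice of that genotype (log2 fold change -0.01, interval -0.19 to 0.17). Asb11, which is X-linked, ranged from 120.4 to 141 CPM in AHRfl/fl and from 104 to 142 CPM in AHRmKO (log2 fold change -0.07, interval -0.25 to 0.11). Asb8 ranged from 98.3 to 113 CPM and from 93.0 to 109.6 CPM (log2 fold change -0.08, interval -0.22 to 0.06). Asb12, also X-linked, ranged from 31.1 to 35.8 CPM and from 27.4 to 36.8 CPM (log2 fold change -0.04, interval -0.22 to 0.13).

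Asb14 was the steadiest of the 10 genes, and Asb18 the least steady. Asb14 was 108, 107, 101, 103 and 103 CPM in AHRfl/fl and 104, 109, 99.8, 99.1 and 107 CPM in AHRmKO (log2 fold change -0.01, interval -0.13 to 0.11). Its highest mouse was only 1.10-fold its lowest, and its SD between mice of 1 genotype was 0.0541 on the log2 CPM scale. Of 1700 genes within 2-fold of its CPM, 2.24% varied less. Asb18 was 13.99, 10.4, 18.02, 20.1 and 17.4 CPM in AHRfl/fl and 20.3, 18.2, 14.8, 19.4 and 16.6 CPM in AHRmKO (log2 fold change 0.16, interval -0.18 to 0.50). Its highest mouse, AHRmKO mouse 8, was 1.95-fold its lowest, AHRfl/fl mouse 12, and of 4183 genes within 2-fold of its CPM, 89.5% varied less. Asb4, known from blood vessels and placenta, was low, at 12.1 to 14.4 CPM in AHRfl/fl and 10.8 to 16.7 CPM in AHRmKO (log2 fold change -0.03, interval -0.29 to 0.23).

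Across the 10 genes, 3 fitted log2 fold changes were above 0 and 7 below, with a median of -0.02 beside 0.01 over all genes tested (quartiles -0.09 and 0.11). Apart from Asb15, which was chosen by this contrast, the fitted values lay between -0.16 and 0.16.

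**Figure D3:**
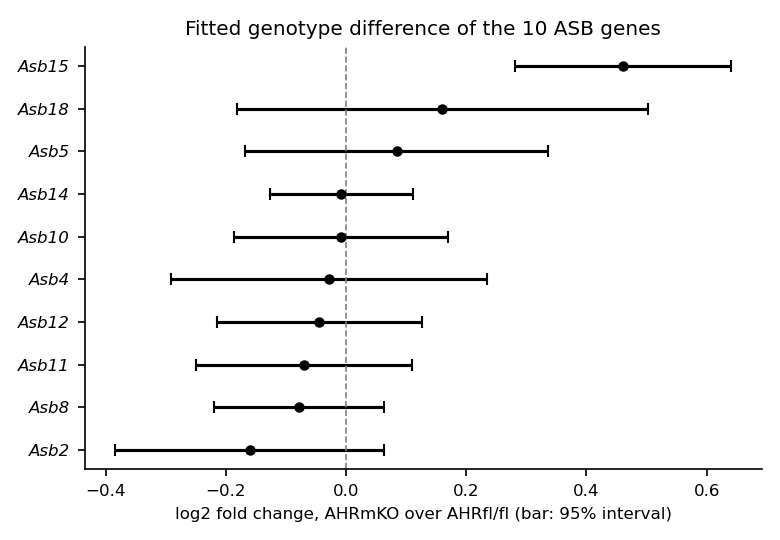
Fitted log2 fold change of AHRmKO over AHRfl/fl for each ASB gene, with its 95% interval. The dashed line marks 0; Asb15, chosen by this contrast, stands at 0.46 (0.28 to 0.64), and the other 9 genes lie between -0.16 and 0.16.

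The RNA of slow-fibre genes differed widely between mice, and fibres were not counted. Myh7, the myosin heavy chain of slow fibres, ran from 3.32 CPM in AHRfl/fl mouse 12 to 631 CPM in AHRmKO mouse 8. A slow-fibre score, the mean of centred log2 CPM of 8 slow-fibre genes, ran from -3.17 to 2.38 in the same 2 mice. All 8 slow-fibre genes had fitted log2 fold changes above 0 (0.23 to 0.64), and none was called by edgeR. Of the 8, 0 had an unadjusted p under 0.05, where 6.61% of all genes tested had. The summed level of the 8 genes was 94.8 to 2019 CPM in AHRfl/fl and 252 to 2395 CPM in AHRmKO, so the groups overlapped.

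Of the 10 genes, 3 followed this score by Pearson's r over the 10 mice (permutation tests with 100000 resamples, adjusted over the 10 genes). Asb10 fell with the score (r = -0.78, adjusted permutation p = 0.0397), as did Asb2 (r = -0.74, adjusted permutation p = 0.0397), and Asb18 rose with it (r = 0.72, adjusted permutation p = 0.0397). Spearman's rho was -0.73, -0.65 and 0.68, each with an adjusted permutation p of 0.165, so 0 of 10 genes passed by rank. When AHRfl/fl mouse 12 and AHRmKO mouse 8, the 2 with the most extreme scores, were left out, r was -0.55, -0.47 and 0.44, and the 3 relations thus rest in part on those mice, whose removal also narrows the range of scores. With single mice left out in turn, r stayed between -0.93 and -0.67 for Asb10, between -0.81 and -0.58 for Asb2 and between 0.55 and 0.83 for Asb18, and the number of genes that passed was 0 in 7 of 10 cases, 1 without AHRmKO mouse 22, and 3 without AHRfl/fl mouse 13 or AHRmKO mouse 9, and it was 0 with library size only. With genotype means removed, r was -0.80 for Asb10 (adjusted permutation p = 0.0486), -0.73 for Asb2 and 0.70 for Asb18 (adjusted permutation p = 0.0679 for both). The other 7 genes did not pass in any of these forms. Asb15 had r = 0.41 and rho = 0.31 (adjusted permutation p = 0.302 and 0.482), and its fitted log2 fold change with the score as a covariate was 0.43.

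**Figure D4:**
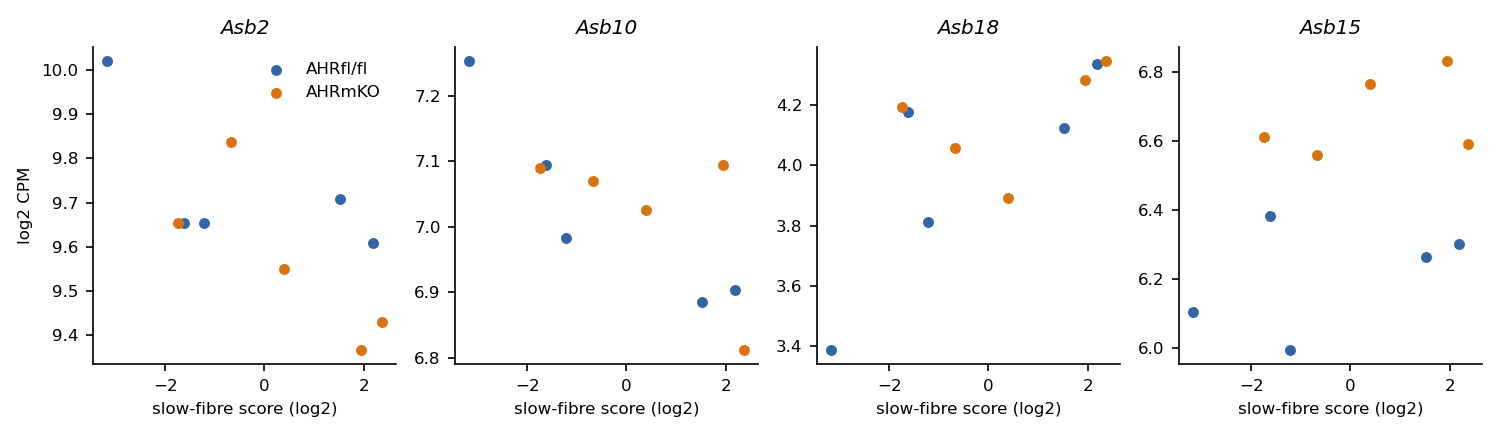
log2 CPM of Asb2, Asb10, Asb18 and Asb15 against the slow-fibre score (mean centred log2 CPM of 8 slow-fibre genes) in each mouse, AHRfl/fl in blue and AHRmKO in orange. Asb2 and Asb10 are lower at high scores (r = -0.74 and -0.78) and Asb18 is higher (r = 0.72), with AHRfl/fl mouse 12 at the far left of each panel, and the Asb15 panel (r = 0.41) shows the 2 genotypes apart, as Asb15 was chosen for.

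Within genotype, the 10 genes did not move as 1 group. After removal of genotype means, r between pairs of log2 CPM over the 10 mice ran from -0.88 to 0.81 in 45 pairs, with a median of 0.02, and 25 pairs were above 0. These values are a description, since the points share libraries and the differences in slow-fibre RNA above. Asb2 and Asb5, the pair at the highest level, had r = 0.81, Asb8 and Asb10 0.75, and Asb5 and Asb11 0.69. Asb18 ran against Asb2, Asb5 and Asb10 (r = -0.69, -0.68 and -0.66). Asb15 had its lowest value with Asb14 (r = -0.88), where Asb14 moved over a narrow range.

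**Figure D5:**
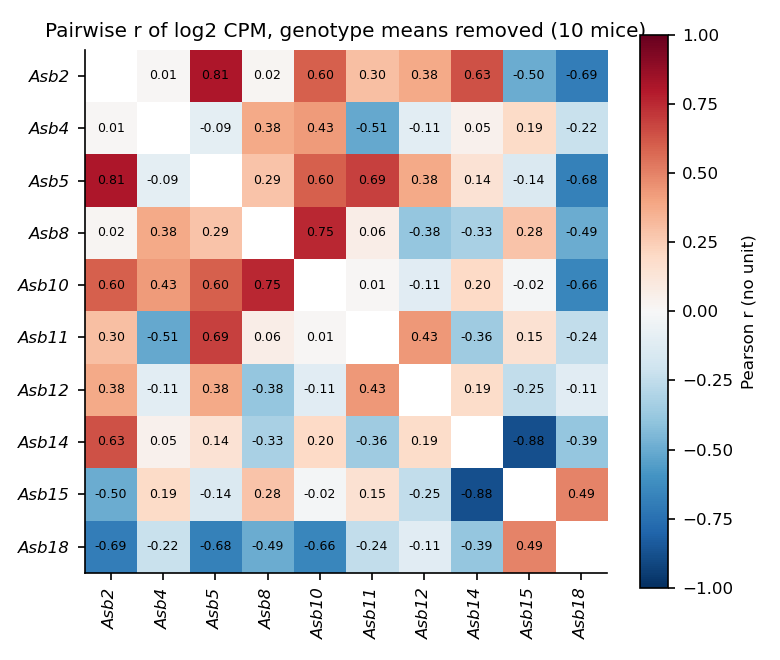
Pearson r between the log2 CPM of each pair of ASB genes over 10 mice with genotype means removed (red above 0, blue below 0). Asb2, Asb5 and Asb10 are positive with each other (0.60 to 0.81), all 3 are negative with Asb18, and the darkest blue cell is Asb14 with Asb15 at -0.88.

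Genes outside the 10 were ranked by the same within-genotype r among 6959 genes of at least 10 CPM on average. Asb15 was most like Zdhhc1 (r = 0.99), Zfp110 (0.92), Dhdds (0.92) and Fahd2a (0.90). Their own fitted log2 fold changes were -0.11, 0.17, -0.00258 and -0.06. Asb2 was most like Slc15a4 (r = 0.96), Trim27 (0.95), Nr3c1 (0.94), Rac1 (0.93) and Rictor (0.93). With 6959 genes and 10 mice these are the top of a long list and are given as descriptions.

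Neighbours of Asb15 were looked at after its values were seen. In the window of 500 kb on either side, 3 other genes were tested, and 0 were called by edgeR. Ndufa5, which encodes a subunit of respiratory complex I, starts 131 bases upstream of Asb15 on the opposite strand, inside the promoter window shown with the sequences, and had a log2 fold change of -0.08 (95% interval -0.25 to 0.09, adjusted p = 0.886, edgeR). Lmod2, a gene of the sarcomeric thin filament, had 0.08 (interval -0.78 to 0.94), and Wasl, an activator of actin nucleation, had 0.03 (interval -0.15 to 0.20). The genotypes overlapped for 3 of the 3 neighbours.

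Promoter windows of 300 bases (250 before and 50 after the start, RefSeq, GRCm38.p6) were found for 10 of 10 genes, 15 windows in all. They were searched on both strands for GCGTG, the core of the site that AHR binds with ARNT, for CAGCTG, an E-box of the kind myogenic factors bind, for TATAAA, and for the MEF2 site, which can overlap TATAAA. The core GCGTG was present in 3 of the 15 windows (Asb8, Asb10 and Asb18), beside 32.4% of 32851 windows of all genes, and CAGCTG in 3 (Asb2, Asb5 and Asb18), beside 16.3%. TATAAA was present in 4 (Asb5, Asb14, Asb15 and Asb18), beside 13.6%, and the MEF2 site in 4 (Asb5, Asb12, Asb14 and Asb18), beside 3.19%. A match of letters is a description of the sequence and not a binding site.

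The windows of 3 genes are shown, that of Asb15 because its genotypes separated, that of Asb14 because it was the steadiest gene and ran opposite to Asb15, and that of Asb18 because it alone held all 4 motifs. Each is printed 5′ to 3′ on the strand of the gene, with matches in capitals.
Asb15, chr6:24527894-24528193, plus strand: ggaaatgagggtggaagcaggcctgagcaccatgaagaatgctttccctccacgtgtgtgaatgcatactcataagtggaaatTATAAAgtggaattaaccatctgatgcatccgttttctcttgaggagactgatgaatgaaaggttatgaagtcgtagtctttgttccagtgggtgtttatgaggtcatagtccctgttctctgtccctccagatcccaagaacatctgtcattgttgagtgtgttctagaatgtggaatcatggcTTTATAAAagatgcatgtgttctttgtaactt
Asb14, chr14:26894364-26894663, plus strand: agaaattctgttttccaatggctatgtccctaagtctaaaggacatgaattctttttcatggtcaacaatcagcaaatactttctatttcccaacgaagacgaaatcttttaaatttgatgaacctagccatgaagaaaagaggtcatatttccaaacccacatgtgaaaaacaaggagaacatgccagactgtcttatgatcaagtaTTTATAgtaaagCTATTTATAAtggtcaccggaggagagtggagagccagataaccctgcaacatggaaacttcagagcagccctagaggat
Asb18, chr1:90014617-90014916, minus strand: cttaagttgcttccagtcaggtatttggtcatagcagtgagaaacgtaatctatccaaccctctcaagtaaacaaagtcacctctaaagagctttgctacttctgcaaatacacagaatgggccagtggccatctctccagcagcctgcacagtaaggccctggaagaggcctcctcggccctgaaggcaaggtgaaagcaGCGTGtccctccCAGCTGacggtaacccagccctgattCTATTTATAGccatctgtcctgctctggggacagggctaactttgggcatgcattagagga

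In the Asb15 window TATAAA was found 3 times, first at base -167 from the start and then at bases 19 and 21 as an overlapping pair on opposite strands, and GCGTG was found 0 times. The Asb14 window held TATAAA at bases -42 and -27, the second inside a MEF2 match at -30. The Asb18 window held GCGTG at -49, CAGCTG at -37, and a MEF2 match at -11 that overlaps TATAAA at -8.

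The partners of the ASB proteins gave no calls between genotypes. Of 10 genes for the ligase core (Cul5, Cul2, Rnf7, Rbx1, Elob, Eloc, Arih2, Ube2f, Ube2m and Nedd8), 0 were called in either direction by edgeR and 0 had an unadjusted p under 0.05, where 6.61% of all genes tested had. Their log2 fold changes ran from -0.19 to 0.09 with a median of -0.05, 4 above 0 and 6 below. Ube2m and Ube2f, the enzymes that load NEDD8 onto cullins, were nearest to a difference (log2 fold change -0.19, interval -0.41 to 0.02, and -0.13, interval -0.27 to 0.01; adjusted p = 0.778 for both, edgeR). Elob, for elongin B, had the highest level, 96.2 RPKM, below Asb2 and Asb5 and above the other members.

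Of the 8 ASB genes outside the 10, 6 were tested and 0 were called by edgeR. Of the 6, 0 had an unadjusted p under 0.05, where 6.61% of all genes tested had. Asb9 and Asb17 were at 0 to 1 and 1 to 16 counts per mouse and were not tested. Asb16 was the highest of them, at 33.9 RPKM, between Asb14 and Asb12, with a log2 fold change of 0.04 (interval -0.12 to 0.20), and Asb13 had 0.05 (interval -0.10 to 0.21). The range over the 6 genes was -0.05 to 0.05.

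Other families with a SOCS box were also not called, 0 of 17 by edgeR and 0 with an unadjusted p under 0.05. Their median was -0.05, with 5 above 0 and 12 below. Wsb2 had a log2 fold change of -0.14 (interval -0.34 to 0.06, adjusted p = 0.826, edgeR), and Socs3, the feedback inhibitor of cytokine signalling, had 1.21 with a wide interval of -1.27 to 3.69. Neurl2 had the highest level of this list, 23.8 RPKM. A list of target genes held 13 genes for reported targets or interactors of ASB proteins. Of these, 12 were tested and 0 were called by edgeR, where 0.0068% of all genes tested were called. An unadjusted p under 0.05 was found for 1 of the 12, where 6.61% of all genes tested had one. That gene was Snai2, a transcription factor at 8 to 53 counts per mouse (log2 fold change -0.90, interval -1.62 to -0.19, adjusted p = 0.665, edgeR). Hif1an had 0.12 (interval -0.07 to 0.32), and Des, for desmin, a target of Asb2, was the highest at 917 RPKM and had -0.10 (interval -0.27 to 0.07).

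Markers of other cells and states were summed beside these results. Of 6 denervation genes 5 were tested, and 5 of 5 had fitted values above 0 (median 0.33). None was called by edgeR, and 1 of 5 had an unadjusted p under 0.05, where 6.61% of all genes tested had. The summed level of the denervation genes was 28.4 to 32.9 CPM in AHRfl/fl and 32.6 to 41.7 CPM in AHRmKO. Chrna1, the acetylcholine receptor subunit, was the member of this list with the smallest unadjusted p (log2 fold change 0.22, interval 0.05 to 0.39, adjusted p = 0.665, edgeR), and Runx1 had 0.45 (interval -0.03 to 0.94). Chrng, the fetal subunit, was at 0 to 18 counts per mouse. The summed levels overlapped only between 32.6 and 32.9 CPM, with AHRmKO higher, the direction of Asb15, and their part in the Asb15 difference was not tested. The Schwann cell list had 4 of 4 genes below 0 (summed 38.5 to 77.0 CPM in AHRfl/fl, 18.8 to 69.4 CPM in AHRmKO), the endothelial list 6 of 6 above 0 (144 to 232 and 158 to 265 CPM), the adipocyte list 3 of 3 tested above 0 (7.88 to 53.9 and 6.13 to 51.0 CPM) and the erythroid list 4 of 4 above 0 (102 to 314 and 140.5 to 474 CPM). Of the fast-fibre genes 7 of 9 had fitted values above 0, of the smooth muscle genes 1 of 4, of the fibroblast genes 1 of 5, of the macrophage genes 3 of 4 and of the satellite cell genes 2 of 3. In these 9 lists none of the genes was called by edgeR. An unadjusted p under 0.05 was found for 0 of them, where 6.61% of all genes tested had one. The part of these lists in the values of the ASB genes was not tested.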

How the data were processed

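RNA from the gastrocnemius of 10 mice was sequenced as poly(A) libraries. According to the labels and methods, the authors trimmed reads with Trimmomatic 0.36, mapped them with STAR 2.5.2b to GRCm38 and counted unique exon reads with featureCounts. The authors deposited raw counts per gene, with 1 column per mouse, not normalized. Strand was to be used if the library was stranded, but whether it was, and the Ensembl release, are not given in the sources used here.

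Genes were kept by filterByExpr (minimum count 10, total 15), scaled by TMM and compared with edgeR 4.0.16 in R 4.3.3 (quasi-likelihood test, robust, Benjamini-Hochberg over 14714 genes). log2 CPM used a prior count of 2. RPKM used exon lengths of GENCODE M21, which holds 49056 of the 49315 identifiers. The alternatives were DESeq2 1.42.0, limma-voom (limma 3.58.1), other scalings and filters, a slow-fibre covariate and leaving out each mouse. An Xist covariate was added after seeing the data. The fits were tested on simulated data. The members and gene lists were chosen with earlier results of these data known. Every member is named. Of the ligase core, other ASB, other SOCS-box, target and denervation lists, genes with an adjusted p under 0.05, the 2 with the lowest unadjusted p and the 1 with the highest RPKM are named, and for Asb15 and Asb2 the 5 genes most like them, of which 1 for Asb15 is not reported here. The other marker lists are given by counts and sums. The neighbours of Asb15, Ahr, Esr1, Myh7, Ddx3y, Xist and genes not tested were named after their values were seen.

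Reads carry no molecular identifiers, so the floor of 3 counts (0.079 to 0.0987 CPM) covers counting error only. Litters are not in the labels, so p-values measure the spread between these mice. Animal numbers do not repeat between genotypes.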

Additional observations from a re-analysis of the deposited data

Results flagged for a closer look

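In 4 of 22 groups of 5 mice tested on the log2 CPM scale, 1 mouse lay apart from the rest by more than 0.71 of the range of the group, a gap that chance gives in about 5% of groups. The groups are genes measured in the same mice and are not independent, so their number was not tested against that share. Asb2 was highest in AHRfl/fl mouse 12, with a gap of 0.755 of the range. Asb5 was also highest in AHRfl/fl mouse 12, with a gap of 0.716. Asb4 was lowest in AHRfl/fl mouse 33, with a gap of 0.733. Asb10 was lowest in AHRmKO mouse 8, with a gap of 0.755. Mice 12 and 8 were also those with the lowest and the highest slow-fibre score, and whether the score accounts for the gaps was not tested.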

How the results depend on the processing

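The log2 fold change of Asb15 stayed between 0.43 and 0.46 in 8 other settings and between 0.41 and 0.50 with each mouse left out. Over the 10 genes, 180 alternative fold changes all moved by less than 1 SD between mice. That SD is of single mice, and leaving out a mouse moves a group mean by only part of it. This bound could therefore hardly be passed, and it does not measure robustness. Of the 180 values, 14 changed sign, all for genes near 0 (Asb4, Asb5, Asb10, Asb12 and Asb14). The median of the 10 genes was 0.01 with the slow-fibre covariate and -0.05 to 0.01 with a mouse left out.

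The number of genes called was 1 in the edgeR test, 21 with DESeq2, 5 without the filter and 2 with the slow-fibre covariate (Esr1 and Mss51). It ranged from 1 to 6 with a mouse left out, 6 without AHRmKO mouse 34. The number of members that followed the slow-fibre score was 3, but 0 with library size only, 1 with genotype means removed, 0 with Myh7 alone as the score, and 0 to 3 with a mouse left out (0 in 7 of 10 cases). The cause was not tested. Over 14 settings, Asb2, Asb10 and Asb18 lost their call in 31 of 42 values, but r kept its sign in all 42. The sign of r changed in 4 values, all for genes that had not passed. The median of the target genes was 0.03 but -0.10 without AHRmKO mouse 34. For the ligase core genes it was -0.05, but -0.10 without AHRmKO mouse 19 and 0.005 without AHRfl/fl mouse 12. No paired analysis was possible because animal numbers are not shared between the genotypes. With 5 mice per genotype and no air-exposed muscle, small changes and effects of smoke lie outside what these libraries resolve.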
